A study of Trachinotus blochii with 22 samples.

Results

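Liver miRNAs of the golden pompano, Trachinotus blochii, a farmed marine fish, were compared between fish held in normal oxygen (normoxia) at 12 h and at 0 h. These are the control groups of a study of low oxygen stress and of rapid or gradual return of oxygen, so the comparison shows how miRNA levels differed over 12 h without any change of oxygen. Each library is total RNA of liver read as single-end reads of 50 bases. There were 3 libraries at 12 h, numbered 1, 2 and 3, and 2 libraries at 0 h, numbered 2 and 3 as in the deposited table, of 22 libraries in 8 groups. The other 6 groups were hypoxia sampled at 0 h or 12 h, and rapid or gradual reoxygenation, each sampled at 3 h or 12 h. The labels give no strain, age, sex or water values, do not state when the hours begin, and name no single fish for a library. The p-values thus rest on the spread among libraries alone, and that spread may be technical. The columns taken as normoxia 0 h carry no time in their names and were placed by the number of libraries per group alone, which limits every value below.

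A miRNA entry was kept as a member when it held at least 1 CPM (reads of the entry scaled to the same fixed sum in each library) in at least 2 of the 5 normoxia libraries, with rows that are identical in all libraries counted once. This gave 545 entries of 1400 distinct entries in the table. Of the 545, 519 carry 226 names of known miRNA families and 26 are predicted hairpins, such as novel_493. Averaged over the 5 libraries, 328 entries reached 10 CPM and 76 reached 1000 CPM. The number of members at 1 CPM or more in a single library ran from 496 to 518. Entry names begin with the species in which the miRNA was catalogued (dre is zebrafish, ola medaka, hsa human), so a name marks the matched sequence and not the origin of the RNA.

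A miRNA is a short RNA cut from a hairpin precursor. One arm of the hairpin, 5p or 3p, is usually loaded into an Argonaute protein, where it pairs with messenger RNAs and lowers their translation or stability. Many miRNAs are strongly tied to one cell type, so a bulk liver library reads hepatocytes through miR-122, red cells through miR-144 and miR-451, epithelia such as bile duct or gut through the miR-200 family, and smooth muscle through miR-143 and miR-145. Fish red cells keep their nucleus and circulate through every sampled organ, and in many fishes pancreatic tissue lies in or along the liver. In bulk samples, fewer cells of a type and less of its RNA per cell cannot be told apart.

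The 5 libraries held 17.7 to 31.9 M read assignments, so that 1 read in an entry was worth 0.0313 to 0.0566 CPM. These totals count a read once in each entry it matches, so they are not numbers of separate reads. miR-122, the hepatocyte marker, led in 4 of the 5 libraries, so the defining marker of the labelled tissue was present. In library 2 of 0 h, miR-192 and miR-143 stood above it. That library stood apart from all others: the root mean square deviation of its entries from the median library was 1.34 log2 units, against 0.345 to 0.868 in the other 21 libraries. Between the 0 h libraries, 250 of the 545 members differed more than 2-fold, 118 of them higher in library 2 and 132 higher in library 3. Between pairs of 12 h libraries this number was 57, 72 and 87. Every result below rests on these 2 libraries of 0 h, and each called family is given with and without library 2.

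Below, an entry passed or was called when its Benjamini-Hochberg adjusted p was under 0.05 in limma, unless another test is named. In this sense 28 of the 545 members differed between 12 h and 0 h, 14 higher and 14 lower at 12 h. Over all 602 entries tested, 29 passed, which is 4.82%, with 2.49% higher and 2.33% lower, and 132 had an unadjusted p under 0.05 (21.9%). The 28 entries carry 14 family names. Entries whose log2 values stayed within 0.2 of each other in every library were taken as near copies that share reads. Joining them left 18 signals, 9 higher and 9 lower. The joining rests on levels alone, so these signals need not be independent. Higher were miR-451, miR-2188, miR-144, miR-144b, miR-122 and the predicted novel_167. Lower were miR-200a, miR-141, miR-429, miR-192, miR-194, miR-143, miR-135b and the predicted novel_493. In all 28 the values of the groups did not overlap, as was so for 26.1% of all entries tested (9.3% higher, 16.8% lower). edgeR and DESeq2 on the recovered reads each called 27 of the 28. The even split of the 29 calls, 15 higher and 14 lower, was 10 higher and 1 lower after TMM scaling and 11 higher and 4 lower after quantile scaling. Over all members the median change was -0.05 on the log2(CPM + 1) scale, with 258 entries above 0 and 287 below. That scale understates the change of entries near 1 CPM.

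**Figure D1:**
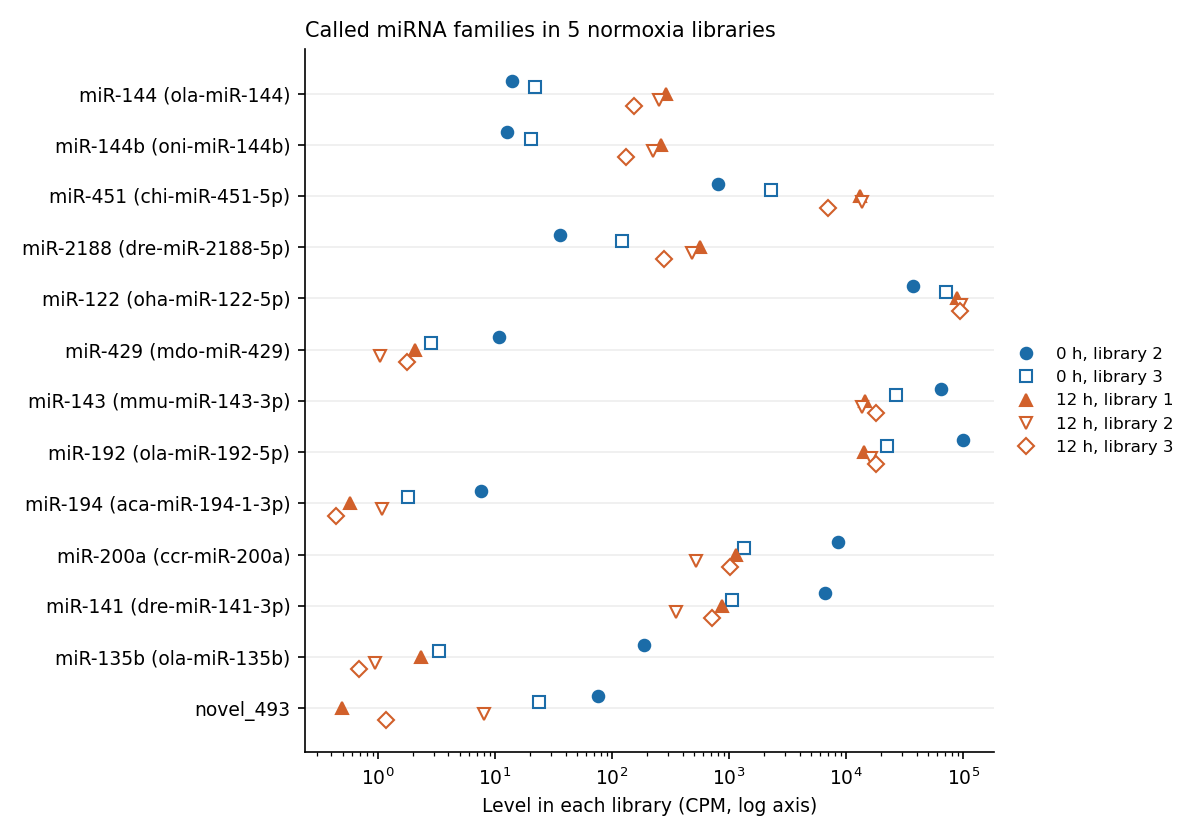
Level of the called families in each of the 5 normoxia libraries (CPM, log axis), by the most abundant called entry of each family, with circles and squares for the 0 h libraries and triangles and diamonds for the 12 h libraries. miR-144, miR-451 and miR-2188 lie to the right at 12 h, while for miR-200a, miR-141 and miR-135b library 2 of 0 h lies far to the right of the other 4. novel_167 is left out because 1 library has no read.

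The red cell miRNAs rose most. miR-144 and miR-451 are cut from one precursor transcript that the erythroid factor GATA1 drives in mouse and zebrafish, and miR-451 is matured by Argonaute itself and not by Dicer. ola-miR-144 stood at 13.9 and 21.7 CPM in the 0 h libraries and at 289, 254 and 154 CPM at 12 h. The lowest 12 h library was thus far above the higher 0 h library. The mean was 17.8 ± 5.58 CPM (SD, n = 2) at 0 h and 232 ± 70.5 CPM (SD, n = 3) at 12 h, a change of 3.62 ± 0.44 log2 units (SE; limma adjusted p = 5.59e-05). pol-miR-144-5p, with 11.4 and 18.1 CPM against 240.2, 231 and 132 CPM, rose by 3.66 ± 0.44. oni-miR-144b, with 12.6 and 20.2 CPM against 259.6, 223 and 131 CPM, rose by 3.54 ± 0.44. pol-miR-144-5p and oni-miR-144b are near copies of each other, and ola-miR-144 had the same order of libraries without staying within 0.2 log2 units of them in every library. The calls of the 3 entries held in each of the 5 fits that left out 1 normoxia library.

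The 3p arm of miR-144, the arm that pairs with targets in most vertebrates studied, was less abundant here and rose as well. xla-miR-144-3p stood at 3.11 and 6.004 CPM at 0 h and at 25.5, 51.9 and 35.6 CPM at 12 h, a change of 2.79 ± 0.49 (adjusted p = 0.00314, limma). The order of the 12 h libraries differed between the arms: library 2 was highest for xla-miR-144-3p and library 1 for pol-miR-144-5p. Without library 2 of 0 h the change was 2.41 and no longer passed (adjusted p = 0.118, limma).

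miR-451 was the most abundant of these miRNAs. chi-miR-451-5p stood at 809 and 2291 CPM at 0 h and at 13268, 13717 and 7021 CPM at 12 h. All 12 h libraries were above both 0 h libraries, and the 0 h libraries differed from each other by a larger ratio than any pair of 12 h libraries did. The change was 2.99 ± 0.57 (adjusted p = 0.00587, limma), and 2.24 without library 2 of 0 h, when it did not pass (adjusted p = 0.264, limma). The less abundant entries followed: cpi-miR-451-5p, at 1.45 and 4.98 CPM against 16.9, 26.7 and 15.7 CPM, rose by 2.40 ± 0.51, and mdo-miR-451, at 0.525 and 3.06 CPM against 9.47, 13.1 and 5.07 CPM, rose by 1.96 ± 0.48. Both lost their call without library 2 of 0 h (adjusted p = 0.264 and 0.365, limma) and without library 2 of 12 h (adjusted p = 0.0734 and 0.119), mdo-miR-451 also without library 1 of 12 h (adjusted p = 0.0666).

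miR-2188, known from fishes and other non-mammalian vertebrates, rose as well. dre-miR-2188-5p stood at 35.7 and 121 CPM at 0 h and at 569, 485 and 277 CPM at 12 h. As for pol-miR-144-5p and chi-miR-451-5p, library 3 was the lowest at 12 h and library 2 the lowest at 0 h. The change was 2.67 ± 0.55 (adjusted p = 0.0110, limma), and it did not pass without library 2 of 0 h (1.80, adjusted p = 0.264) or without library 1 of 12 h (2.46, adjusted p = 0.0527). The other arm, ssa-miR-2188-3p, is not among the 545 members, because 1 library alone held 1 CPM. It had no read in library 2 of 0 h, 0.0566 CPM (1 read) in library 3, and 1.11, 0.947 and 0.595 CPM at 12 h, and it was the 29th entry to pass (adjusted p = 0.0161, limma). Summed over miR-451, miR-2188, miR-144 and miR-144b, the red cell list held 871 and 2454 CPM at 0 h and 14386, 14679 and 7583 CPM at 12 h, with no member at 0. Whether more red cells in the tissue carried the rise was not tested.

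The 12 h levels of these miRNAs were high against the rest of the series. The levels in both library columns of 0 h were low for ola-miR-144 and chi-miR-451-5p, which need not hold for the 0 h group as a whole. For dre-miR-2188-5p and mdo-miR-451, library 3 of 0 h lay nearer the middle. In the 17 libraries of the other groups ola-miR-144 ran from 33.0 to 244 CPM with a median of 82.9. Both 0 h libraries were below all 17, and 2 of the 17 were above the lowest 12 h library. chi-miR-451-5p ran from 825 to 12623 CPM in the 17, with a median of 3745, and 15 of them were above the higher 0 h library. The authors' deposited 0 h means, which hold a further library, were 41.5 CPM for ola-miR-144 and 2543 CPM for chi-miR-451-5p. Both means lay above both 0 h columns, within the range of the 17 and below their median. dre-miR-2188-5p ran from 40.1 to 455 CPM with a median of 149, and 11 of the 17 were above library 3 of 0 h. For the rare mdo-miR-451, 8 of the 17 were above that library. No library of the 17 exceeded the highest normoxia 12 h library for ola-miR-144, chi-miR-451-5p or dre-miR-2188-5p. For xla-miR-144-3p and mmu-miR-144-3p, 2 of the 17 did. The highest of the 17 held 59.3 CPM of xla-miR-144-3p, against 51.9 CPM in the highest normoxia 12 h library.

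miR-122 makes up much of the miRNA of vertebrate liver and acts on cholesterol and fatty acid metabolism in mouse. oha-miR-122-5p stood at 37563 and 70974 CPM at 0 h and at 89169, 95328 and 93215 CPM at 12 h. The 12 h libraries lay close together, and the difference between the 0 h libraries was larger than that between library 3 of 0 h and any 12 h library. The mean was 54269 ± 23625 CPM (SD, n = 2) at 0 h and 92571 ± 3129.6 CPM (SD, n = 3) at 12 h, a change of 0.84 ± 0.21 (adjusted p = 0.0251, limma). All 12 entries of the family were higher at 12 h and 4 passed, but these 4 are near copies of each other. The other arm, mmu-miR-122-3p, at 22.3 and 74.1 CPM against 110.4, 50.3 and 41.2 CPM, overlapped between the groups (0.57 ± 0.46, adjusted p = 0.580, limma). The miR-122 call was lost in 4 of the 5 fits without 1 library, with 0.38 and an adjusted p of 0.419 (limma) without library 2 of 0 h, and adjusted p of 0.0612, 0.0951 and 0.0665 without libraries 1, 2 and 3 of 12 h. In the 17 other libraries the entry ran from 71475 to 109912 CPM, so both 0 h libraries were below all of them and the 12 h libraries were inside that range.

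Called entries of miR-200a, miR-141, miR-429, miR-192 and miR-194 fell. The called miR-200a entries are near copies of each other, as are dre-miR-192 and ola-miR-192-5p. miR-192 and miR-194 are also members of the list of hepatocyte miRNAs. The miR-200 family, whose members keep epithelial cells in that state by repressing ZEB1 and ZEB2 in mammals, comes from a pair of clusters, and all 5 families had a change below 0. ccr-miR-200a stood at 8531 and 1336 CPM at 0 h and at 1135, 520.1 and 1014 CPM at 12 h, a change of -2.001 ± 0.51 (adjusted p = 0.0251, limma). dre-miR-141-3p stood at 6609 and 1060.3 CPM at 0 h and at 868, 352 and 708 CPM at 12 h, a change of -2.14 ± 0.53 (adjusted p = 0.0251, limma). For both, library 2 of 0 h was several times the other 4, and library 3 of 0 h was just above the highest 12 h library. Of the rest, sha-miR-200b had 2762 and 416 CPM against 576, 314 and 470.4 CPM, and dre-miR-200c-3p had 1703 and 247 CPM against 304, 197 and 288 CPM. Library 3 of 0 h lay among the 12 h libraries in these, and neither passed (-1.28 and -1.32, adjusted p = 0.127 and 0.122, limma). xla-miR-429 did not pass either (-1.48, adjusted p = 0.0812, limma), while the less abundant mdo-miR-429, at 10.7 and 2.83 CPM against 2.05, 1.03 and 1.79 CPM, did (-1.37 ± 0.38, adjusted p = 0.0422, limma).

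Over the 5 families of the list, the median change was -1.48, beside -0.06 over all entries tested, and 2 of 5 passed, both lower. Taken against library 2 of 0 h alone the list's median was -2.78, and against library 3 alone -0.19. The summed level of the list was 19714 and 3076 CPM at 0 h and 2901, 1395 and 2496 CPM at 12 h. Without library 2 of 0 h the change of ccr-miR-200a was -0.66 (adjusted p = 0.505), that of dre-miR-141-3p -0.82 (adjusted p = 0.471) and that of mdo-miR-429 -0.57 (adjusted p = 0.545, all limma). The call for ccr-miR-200a also failed without any 1 of the 12 h libraries (adjusted p = 0.0527, 0.135 and 0.0521, limma), and that for dre-miR-141-3p without library 2 or 3 of 12 h (adjusted p = 0.126 and 0.0521). mdo-miR-429 likewise did not pass without library 1, 2 or 3 of 12 h (adjusted p = 0.0612, 0.159 and 0.0757, limma). In the 17 other libraries ccr-miR-200a ran from 603 to 1638 CPM, so that library 2 of 0 h was above all 17 while the other 0 h library was exceeded by 6.

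miR-192 and miR-194, which are abundant in gut, kidney and liver epithelia of mammals and lie in shared clusters, were the next group. ola-miR-192-5p stood at 98914 and 22302 CPM at 0 h and at 14340.2, 16456 and 17887 CPM at 12 h. Library 2 of 0 h held more than any other library and library 3 lay above all 12 h libraries (-1.54 ± 0.40, adjusted p = 0.0288, limma). pma-miR-192-5p followed with 72.3 and 22.7 CPM against 13.8, 8.16 and 12.3 CPM (-1.78 ± 0.44, adjusted p = 0.0251, limma). The 3p arm, ola-miR-192-3p, did not pass, at 564 and 134 CPM against 107, 99.9 and 116 CPM (-1.35 ± 0.42, adjusted p = 0.0739, limma), though its groups did not overlap. mmu-miR-194-5p stood at 6756 and 1179 CPM at 0 h and at 1138, 781 and 1137 CPM at 12 h and did not pass (-1.49 ± 0.49, adjusted p = 0.0812, limma). ola-miR-194-3p, at 175 and 24.7 CPM against 18.7, 18.7 and 18.6 CPM, did not pass (-1.77 ± 0.53, adjusted p = 0.0634, limma), and the rare aca-miR-194-1-3p, at 7.59 and 1.81 CPM against 0.574, 1.07 and 0.438 CPM, did (-1.55 ± 0.35, adjusted p = 0.0201, limma).

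Of the list of gut and kidney epithelium, 8 of 8 families were lower and 1 passed, with a median of -1.30 (-2.17 against library 2 of 0 h and -0.32 against library 3). miR-194, miR-194a and miR-194b in it are near copies. Its summed level was 122564 and 27095 CPM at 0 h and 18528, 20170 and 22338 CPM at 12 h. Without library 2 of 0 h, ola-miR-192-5p gave -0.46 (adjusted p = 0.545), pma-miR-192-5p -0.96 (adjusted p = 0.419) and aca-miR-194-1-3p -0.75 (adjusted p = 0.361, all limma). ola-miR-192-5p and pma-miR-192-5p also lost their calls without any 1 of the 12 h libraries, with adjusted p of 0.0529 to 0.119. aca-miR-194-1-3p lost its call without library 1 or 3 of 12 h (adjusted p = 0.0571 and 0.0521). The 17 other libraries held 11849 to 24303 CPM of ola-miR-192-5p, and 1 of them was above library 3 of 0 h.

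miR-143 and miR-145, a pair cut from one transcript that mark smooth muscle of vessels and gut, also stood lower at 12 h. efu-miR-143 held 65322 and 26755 CPM at 0 h and 14376, 13551 and 18032 CPM at 12 h. Both 0 h libraries were above all 12 h libraries (-1.46 ± 0.34, adjusted p = 0.0226, limma). dre-miR-145-5p, at 213 and 60.5 CPM against 56.6, 35.01 and 51.9 CPM, did not pass (-1.26 ± 0.44, adjusted p = 0.0895, limma). In the summed list miR-143 gave nearly all of 65535 and 26816 CPM at 0 h and 14432, 13586 and 18084 CPM at 12 h. Without library 2 of 0 h efu-miR-143 gave -0.82 (adjusted p = 0.361), and it also failed without library 1 or 2 of 12 h (adjusted p = 0.0612 and 0.0951, limma). Its level in the 17 other libraries ran from 12804 to 34859 CPM, 2 of them above library 3 of 0 h.

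The remaining called entries were rare or uneven. ola-miR-135b stood at 187 and 3.34 CPM at 0 h and at 2.34, 0.947 and 0.689 CPM at 12 h (-3.68 ± 1.03, adjusted p = 0.0446, limma). Library 2 of 0 h was far above the other 4. Without it the change was -0.97 (adjusted p = 0.622), and the call also failed without any 1 of the 12 h libraries (adjusted p = 0.0666 to 0.135). The predicted novel_493 held 76.2 and 23.9 CPM at 0 h and 0.492, 8.11 and 1.16 CPM at 12 h (-3.83 ± 0.94, adjusted p = 0.0251, limma). Both 0 h libraries were above all 12 h libraries, but the 17 other libraries spread from 1.32 to 107 CPM, and the call failed without library 2 of 0 h (-3.01, adjusted p = 0.361) and without library 1 or 3 of 12 h (adjusted p = 0.0946 and 0.0715). The authors' deposited 0 h means, which hold 1 further library, were 35.4 CPM for novel_493 and 0.731 CPM for novel_167. The latter mean lay above both 0 h columns and above the lowest 12 h library. The predicted novel_167 had 0.121 CPM (3 reads) and no read in the 0 h columns, and 3.77, 1.44 and 0.720 CPM at 12 h. It passed in limma (adjusted p = 0.0443) and in neither count test (adjusted p = 0.192 in edgeR and 0.156 in DESeq2), and failed without every normoxia library but library 3 of 12 h (adjusted p = 0.0536 to 0.264).

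**Figure D2:**
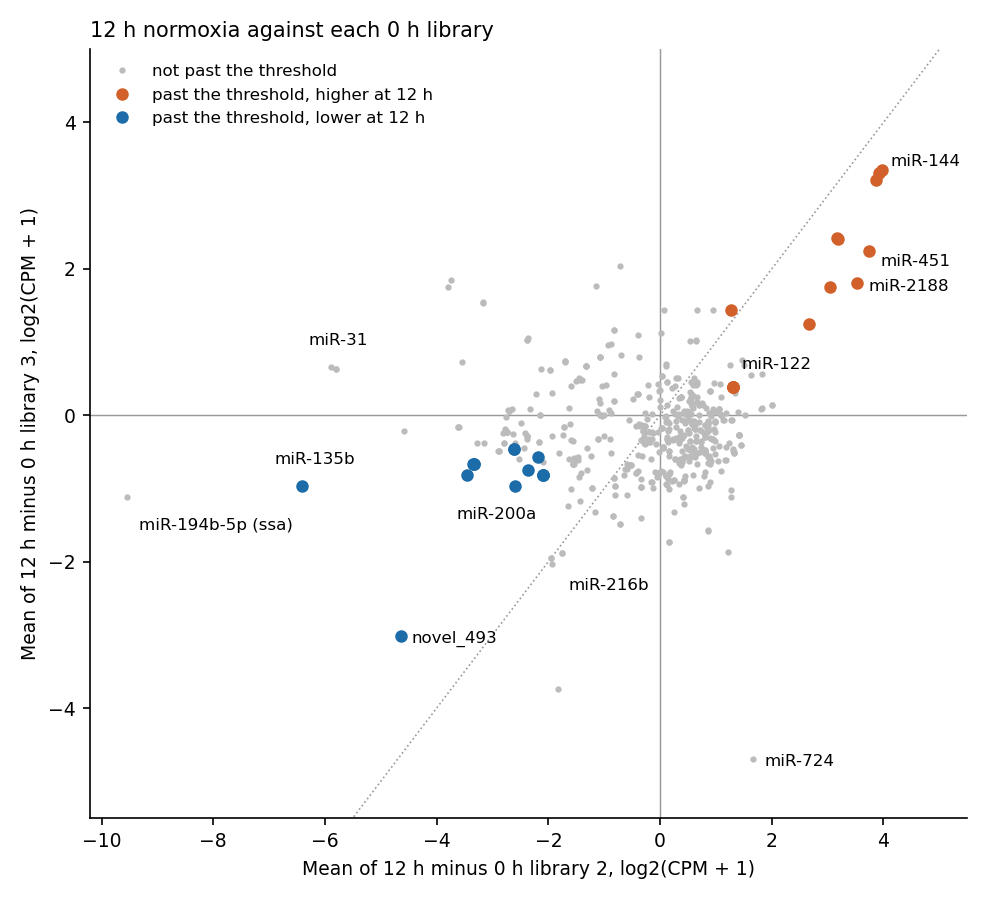
Mean of the 12 h libraries minus library 2 of 0 h (horizontal axis) and minus library 3 of 0 h (vertical axis), both on the log2(CPM + 1) scale, for the 545 members, with the 28 called entries in colour. miR-144, miR-451 and miR-2188 lie high on both axes, while miR-200a and miR-135b lie far left and near 0 on the vertical axis, and miR-216b lies near -1.94 and -2.03 without a call.

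Set against each 0 h library by itself, the groups of miRNAs separated. In all 28 called entries the groups did not overlap, so each had the same sign against both libraries by construction. Of the 28, 11 differed by at least 1 log2 unit from both. Among the 545 members, 22 met that condition, 10 higher and 12 lower at 12 h. The 10 higher ones belong to miR-451, miR-2188, miR-144 and miR-144b, with the rare novel_167. The 12 lower ones are entries of miR-216b, miR-217, miR-8159, miR-10d, ggo-miR-29a, ssa-miR-194b-5p and the predicted novel_493 and novel_395, and of these novel_493 alone passed in limma. edgeR also called ssa-miR-194b-5p (adjusted p = 0.0129) and DESeq2 also called ssa-miR-10d-5p (adjusted p = 0.0384). ola-miR-144 was 3.92 log2 units above library 2 and 3.31 above library 3, and chi-miR-451-5p was 3.74 and 2.24 above them.

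For miR-216b and miR-217 of the pancreas list the 2 library columns of 0 h were alike and the 12 h libraries were not. The authors' deposited 0 h means hold 1 further library. They were 1690 CPM for dre-miR-216b and 1124 CPM for hsa-miR-217-5p, below both columns, so the 0 h group as a whole was not alike. miR-216a, miR-216b and miR-217 mark the acinar cells of the exocrine pancreas, and they share a cluster in vertebrates. dre-miR-216b stood at 2431 and 2590.0 CPM at 0 h and at 522, 302 and 1603 CPM at 12 h. The groups did not overlap, but the spread among the 12 h libraries left the change of -1.99 ± 1.33 far from the threshold (adjusted p = 0.465, limma). hsa-miR-217-5p had the same order of the 12 h libraries, with 1685 and 1671 CPM at 0 h and 379, 165 and 1286 CPM at 12 h (-1.96 ± 1.70, adjusted p = 0.621, limma). The rarer hsa-miR-216a-5p overlapped, at 18.5 and 9.06 CPM against 2.71, 2.72 and 20.95 CPM. ssa-miR-8159-5p, a miRNA catalogued in fishes, had its high and low libraries in the same places, at 4106 and 4485 CPM against 849, 616 and 3462 CPM (-1.81 ± 1.10, adjusted p = 0.387, limma).

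These entries ranged widely in the rest of the series too. In the 17 other libraries dre-miR-216b ran from 24.8 to 2244 CPM with a median of 1675, and hsa-miR-217-5p from 5.35 to 2079 CPM with a median of 1169. Both library columns of normoxia 0 h were above all 17 for dre-miR-216b, while the authors' deposited 0 h mean of 1690 CPM lay within their range. bfl-miR-375, the marker of endocrine cells in the same list, followed another order, at 59.2 and 0.283 CPM against 0.574, 36.2 and 0.376 CPM. The summed pancreas list held 4625 and 4969 CPM at 0 h and 1399, 1133 and 3493 CPM at 12 h, with no member at 0, and 0 of its 5 families passed in limma. abu-miR-148a-5p, also in the list, had 432 and 699 CPM at 0 h and 495, 627 and 583 CPM at 12 h. The median change of the list was -1.06, with 4 of 5 below 0, and it was -0.58 without library 2 of 0 h and -1.94 without library 3.

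**Figure D3:**
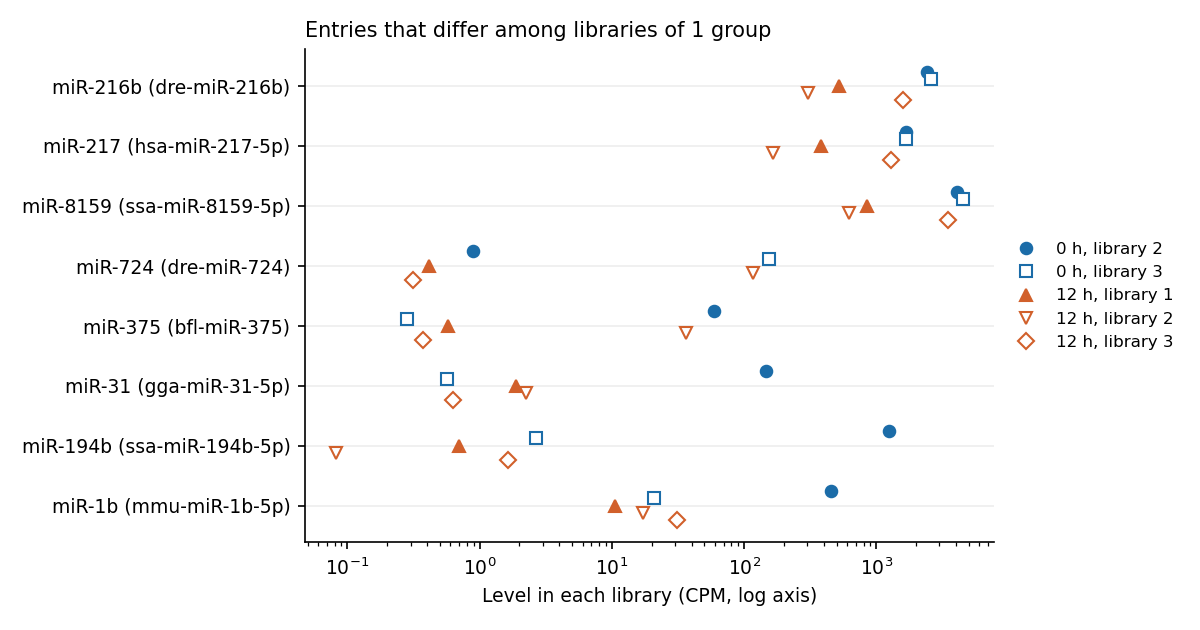
Level of 8 entries in each of the 5 normoxia libraries (CPM, log axis), chosen after their values were seen because libraries of the same group differ. miR-216b, miR-217 and miR-8159 are low in 12 h libraries 1 and 2, miR-724 and miR-375 are high in 1 library of each group, and miR-31, ssa-miR-194b-5p and miR-1b are high in library 2 of 0 h.

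Some of the largest differences lay within a group and not between groups. ssa-miR-194b-5p stood at 1256 and 2.66 CPM at 0 h and at 0.697, 0.0824 and 1.63 CPM at 12 h, and the 17 other libraries ran from 0.296 to 110.7 CPM. Its change of -5.33 ± 1.74 did not pass (adjusted p = 0.0812, limma). bta-miR-194b, the abundant entry of that name, held 6468 and 1092 CPM at 0 h and 1054, 708 and 1050.2 CPM at 12 h. In both entries library 2 was the higher at 0 h and the lowest at 12 h. The ratio between the 0 h libraries was far larger for ssa-miR-194b-5p. gga-miR-31-5p, an epithelial miRNA of mammals, had 146 and 0.566 CPM at 0 h and 1.89, 2.22 and 0.626 CPM at 12 h, so that library 3 of 0 h was below all 12 h libraries (-2.62 ± 1.13, adjusted p = 0.180, limma). dre-miR-724 was high in 1 library of each group and under 1 CPM in the others, at 0.889 and 154 CPM against 0.410, 116 and 0.313 CPM. In the 17 other libraries it was above 10 CPM in 4 and below 2 CPM in 12.

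Of the striated muscle miRNAs, miR-133 and miR-1 were high in library 2 of 0 h alone. dme-miR-133-3p, which with miR-1 and miR-206 marks striated muscle, had 19.3 and 0.850 CPM at 0 h and 0.574, 0.412 and 1.06 CPM at 12 h (-1.88 ± 0.65, adjusted p = 0.0895, limma). cel-miR-1-3p had 21.5 and 2.89 CPM at 0 h and 1.85, 1.69 and 3.85 CPM at 12 h (-1.49 ± 0.60, adjusted p = 0.156, limma), and mmu-miR-1b-5p had 450.2 and 20.96 CPM against 10.6, 17.3 and 30.9 CPM. In the 17 other libraries dme-miR-133-3p ran from 0.157 to 5.96 CPM and cel-miR-1-3p from 1.64 to 12.1 CPM. mmu-miR-1b-5p ran from 16.4 to 188 CPM in them. mdo-miR-206 differed from these entries, with library 3 the higher at 0 h (7.79 and 14.95 CPM against 6.97, 7.58 and 6.51 CPM). Of the list, 3 of 6 families were tested and 0 passed in limma, while edgeR and DESeq2 both called dme-miR-133-3p (adjusted p = 0.0131 and 0.000464) and cel-miR-1-3p (0.0344 and 0.00842). The list had a median of -1.49 (-2.76 against library 2 of 0 h and -0.22 against library 3). Its summed level was 48.6 and 18.7 CPM at 0 h and 9.39, 9.68 and 11.4 CPM at 12 h, low beside the epithelial lists. The epithelial, smooth muscle and striated muscle lists were thus all highest in the same library, and the part of these cell types in the differences between the groups was not tested.

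**Figure D4:**
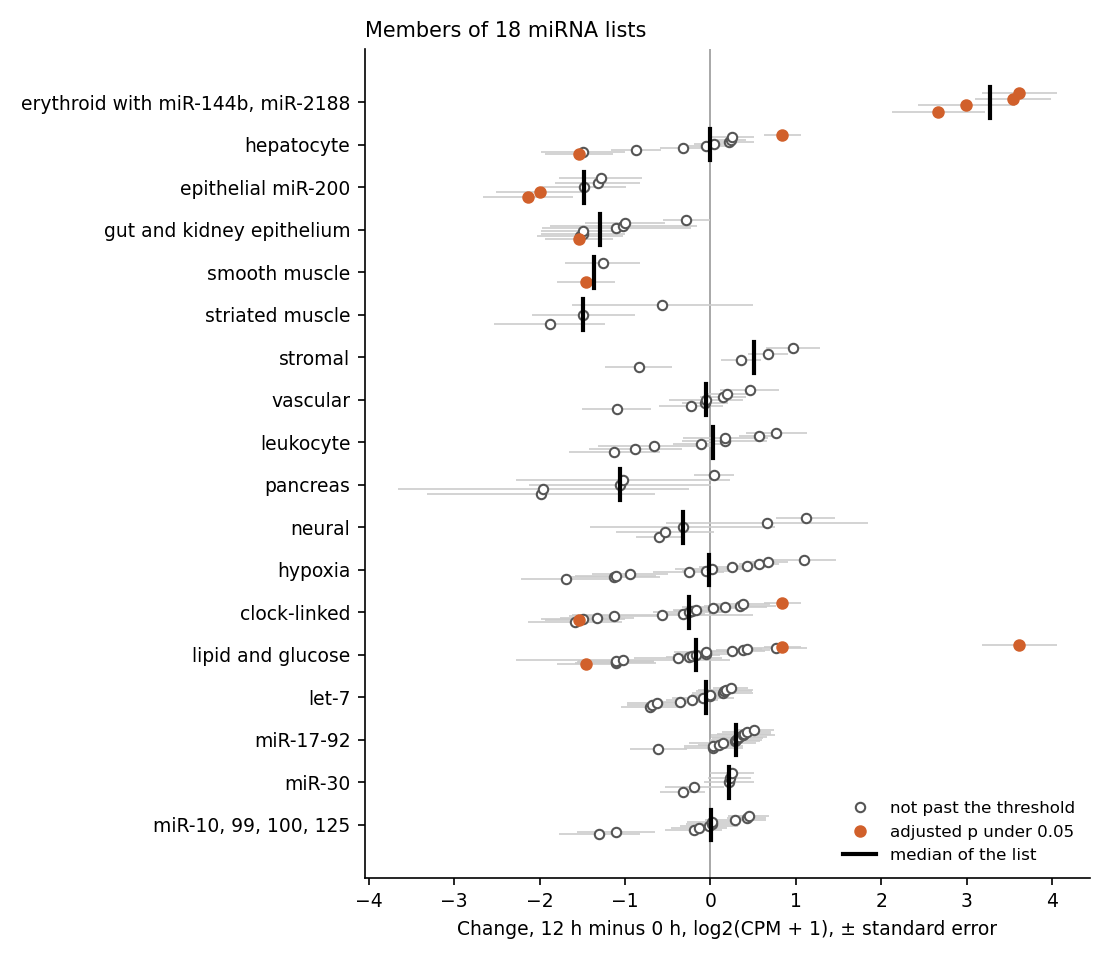
Change from 0 h to 12 h on the log2(CPM + 1) scale with its standard error for the tested members of 18 miRNA lists, with called members filled and the median of each list as a bar. The red cell list with miR-144b and miR-2188 has a median of 3.27 and all 4 members called. Its miR-144 and miR-144b have the same order of libraries. The miR-200 list has a median of -1.48, and the let-7 and vascular lists lie around 0. The lists were chosen with earlier results of these data known.

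The stromal miRNAs, read through miR-199 and miR-214, gave no call in limma and 2 in each count test. aca-miR-199a-5p had 858 and 1539 CPM at 0 h and 1611, 1939 and 1955 CPM at 12 h, with both 0 h libraries below the 12 h libraries (0.67 ± 0.23; adjusted p = 0.0959 in limma, 0.0197 in edgeR and 0.00681 in DESeq2). mdo-miR-199b-2-5p had 9.73 and 14.8 CPM at 0 h and 17.5, 37.0 and 22.7 CPM at 12 h (0.97 ± 0.32; adjusted p = 0.0812 in limma, 0.0327 in edgeR and 0.00730 in DESeq2). hsa-miR-214-3p, whose gene lies beside that of miR-199a in vertebrates, went the other way, at 107 and 110.3 CPM against 65.3, 46.1 and 72.8 CPM (-0.84 ± 0.39, adjusted p = 0.223, limma). The list's median was 0.51, and 0.21 without library 2 of 0 h, with 0 of 4 past the threshold in limma.

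Endothelial and leukocyte miRNAs showed no call in limma, and DESeq2 called miR-155. dre-miR-126a-3p, which marks endothelium and supports vessel integrity in zebrafish, had 2434 and 5219 CPM at 0 h and 4289.5, 3839 and 4066 CPM at 12 h. The 12 h libraries lay between the 0 h libraries. dre-miR-146a, which damps signalling downstream of Toll-like receptors in mammals, had 23047 and 25870.2 CPM at 0 h and 17837, 9892 and 13181 CPM at 12 h (-0.88 ± 0.54, adjusted p = 0.393, limma). gga-miR-155, raised in activated leukocytes in mammals, had 31.0 and 5.04 CPM at 0 h and 8.00, 4.70 and 4.07 CPM at 12 h. Its change was -2.33 against library 2 of 0 h and 0.08 against library 3, and its adjusted p was 0.227 in limma, 0.0578 in edgeR and 0.0230 in DESeq2. hsa-miR-223-3p, a miRNA of granulocytes, had 5.82 and 3.91 CPM at 0 h and 14.3, 9.39 and 5.07 CPM at 12 h. In the vascular list 0 of 7 and in the leukocyte list 0 of 8 passed in limma, with medians of -0.05 and 0.03. These medians near 0 stand between opposite values: without library 2 of 0 h they were -0.52 and 0.08, and without library 3 they were 0.74 and -0.57.

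Of the hypoxia list, written for miRNAs that respond to low oxygen, 12 of 13 families were tested and 0 passed in limma here, where oxygen was not lowered. The median was -0.02, with 6 above 0 and 6 below, and it was 0.08 without library 2 of 0 h and -0.35 without library 3. dre-miR-210-5p, of the miRNA that the factor HIF1 induces in mammals, had 5.25 and 12.1 CPM at 0 h and 21.7, 16.2 and 17.3 CPM at 12 h. All 12 h libraries were above both 0 h libraries, and the change of 1.09 ± 0.38 did not pass in limma (adjusted p = 0.0895) or edgeR (0.0652) and passed in DESeq2 (0.0261). efu-miR-23a had 165 and 30.2 CPM at 0 h and 22.6, 20.4 and 20.9 CPM at 12 h (-1.69 ± 0.53; adjusted p = 0.0739 in limma, 0.0129 in edgeR and 0.000482 in DESeq2). dre-miR-462 and ssa-miR-731-5p, a clustered pair of fishes induced by low oxygen in zebrafish, had 661 and 223 CPM against 156, 234 and 218 CPM, and 78.4 and 20.4 CPM against 34.5, 52.4 and 36.8 CPM. For this pair the 12 h libraries overlapped with library 3 of 0 h or lay between the 0 h libraries. dre-miR-462 passed in DESeq2 (adjusted p = 0.0487) and not in limma (0.228) or edgeR (0.0841), while ssa-miR-731-5p passed in none. efu-miR-26a of the list likewise passed in DESeq2 (adjusted p = 0.0261) and not in limma (0.156) or edgeR (0.102).

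A list of miRNAs linked to the circadian clock in mammals is described although the labels give no clock times. Of 19 families 15 were tested, 5 above 0 and 10 below, with 1 called in each direction, and these were miR-122 and miR-192, given above. The median was -0.26. dre-miR-182-5p and ola-miR-183-5p, clustered miRNAs of sensory cells, had 12.4 and 1.53 CPM against 1.03, 1.03 and 0.783 CPM, and 16.6 and 3.12 CPM against 2.46, 2.88 and 1.91 CPM. Neither passed in limma (-1.59 and -1.33, adjusted p = 0.0895 and 0.0812), and both count tests called both. The adjusted p was 0.0197 in edgeR for each, and in DESeq2 0.00275 for dre-miR-182-5p and 0.00294 for ola-miR-183-5p. aca-miR-132-5p, induced by light in the mouse clock centre, stayed low and overlapped, at 1.98 and 0.0566 CPM against 0.738, 3.21 and 0.564 CPM.

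In the list on lipid and glucose metabolism 17 of 22 families were tested, with 2 called higher and 1 lower and a median of -0.17. The called ones were miR-122, miR-144 and miR-143, which other lists hold too. ola-miR-33, whose mammalian relatives lie within the genes of the sterol regulators SREBF1 and SREBF2, had 2.30 and 1.87 CPM at 0 h and 0.984, 2.31 and 1.63 CPM at 12 h. xla-miR-34a-5p, a target of p53 in mammals, had 15.6 and 23.1 CPM at 0 h and 5.13, 9.47 and 11.4 CPM at 12 h (-1.11 ± 0.45, adjusted p = 0.156, limma). Its groups did not overlap. In the hepatocyte list, 10 of 11 families were tested, 5 above 0 and 5 below, with miR-122 called higher and miR-192 called lower. Its median of -0.01 was 0.27 against library 2 of 0 h and -0.22 against library 3.

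The broad families lay near the middle of all entries. let-7, which promotes differentiation from worm to mammal, had 12 of 12 members tested and a median of -0.05, which was -0.33 without library 2 of 0 h and 0.17 without library 3. cel-let-7-5p had 6996 and 8734 CPM at 0 h and 8376, 11556 and 7154 CPM at 12 h, and dre-let-7h had 551 and 596 CPM against 308, 438 and 336 CPM (-0.68 ± 0.30, adjusted p = 0.183, limma). The growth-linked miR-17-92 list had 12 of 13 members above 0 and a median of 0.30, which was -0.16 without library 2 of 0 h. dre-miR-93 was the one with the largest rise in it, at 27.2 and 29.2 CPM against 42.7, 37.9 and 41.3 CPM (0.51 ± 0.23). Its adjusted p was 0.220 in limma, 0.125 in edgeR and 0.0253 in DESeq2. The miR-30 list, with a median of 0.22, gave -0.21 without that library, and the list of miR-10 with miR-99, miR-100 and miR-125, with a median near 0, gave -0.50. In these 4 lists 0 members passed in limma. Quantile scaling turned the signs of the medians of the let-7 (0.10), hepatocyte (0.21), hypoxia (0.04) and vascular (0.06) lists, so no direction is read from them.

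The neural list had 5 of 11 families tested and a median of -0.32, with 0 past the threshold in limma. Without library 2 of 0 h its median turned to 0.67, and without library 3 it was -0.72. Its member mmu-miR-128-3p, abundant in the brain of mammals, nevertheless had both 0 h libraries below all other libraries of the series. It stood at 234 and 384 CPM at 0 h and at 637, 729 and 590.1 CPM at 12 h, with 386 to 977 CPM in the 17 other libraries. Its change of 1.11 ± 0.34 did not pass in limma (adjusted p = 0.0739) or edgeR (0.0589) and passed in DESeq2 (0.0250). It was 1.47 against library 2 of 0 h and 0.76 against library 3. mmu-miR-138-5p went the other way, at 4.52 and 6.97 CPM against 3.69, 2.55 and 4.01 CPM. Its groups did not overlap, and it did not pass (-0.60 ± 0.27, adjusted p = 0.217, limma). oha-miR-9-3p, dre-miR-153b-3p and gga-miR-7 overlapped between the groups.

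One entry, mze-miR-22b, passed in limma with library 2 of 0 h left out and not with all libraries, while edgeR and DESeq2 called it with all libraries (adjusted p = 0.00867 and 0.000482). It stood at 628 and 1305 CPM at 0 h and at 472, 489 and 524 CPM at 12 h, and both 0 h libraries were above all 17 others (276 to 608 CPM). Its change was -0.87 ± 0.29 with all libraries (adjusted p = 0.0831, limma) and -1.40 without library 2 of 0 h, when it passed (adjusted p = 0.0332). dre-miR-22a-3p, the abundant relative, had 20596 and 29673 CPM at 0 h and 29108, 30429.9 and 28310.4 CPM at 12 h (0.24 ± 0.17, adjusted p = 0.477, limma). gga-miR-460a-5p had 13.2 and 33.1 CPM at 0 h and 48.6, 59.5 and 41.3 CPM at 12 h (1.19 ± 0.36, adjusted p = 0.0739, limma).

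The count tests called more entries than limma. edgeR called 79 of 602 (13.1%), 18 higher and 61 lower, and DESeq2 called 97 (16.1%), 28 higher and 69 lower. Both called 49 entries that limma did not, of which 31 had a mean of at least 10 CPM, 27 lower and 4 higher. The 4 higher ones were miR-199a, miR-199b, miR-460a and rno-miR-122b, the last with 24719.5 and 50534 CPM at 0 h and 57801, 63708 and 65581 CPM at 12 h. The lower ones included entries of miR-31, miR-1b, miR-215, miR-23a, miR-194, miR-200b, miR-200c and miR-145. xtr-miR-215, which shares its seed with miR-192, had 306 and 40.0 CPM at 0 h and 25.8, 32.5 and 34.0 CPM at 12 h (limma adjusted p = 0.0881, edgeR adjusted p = 0.0142, DESeq2 adjusted p = 0.00117). The more abundant hsa-miR-215-5p overlapped between the groups, at 3627 and 1313 CPM against 814, 1431 and 1118 CPM. It passed in no test (adjusted p = 0.223 in limma, 0.141 in edgeR and 0.101 in DESeq2). With library 2 of 0 h left out, edgeR called 4 entries, 3 of which limma had called with all libraries.

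**Figure D5:**
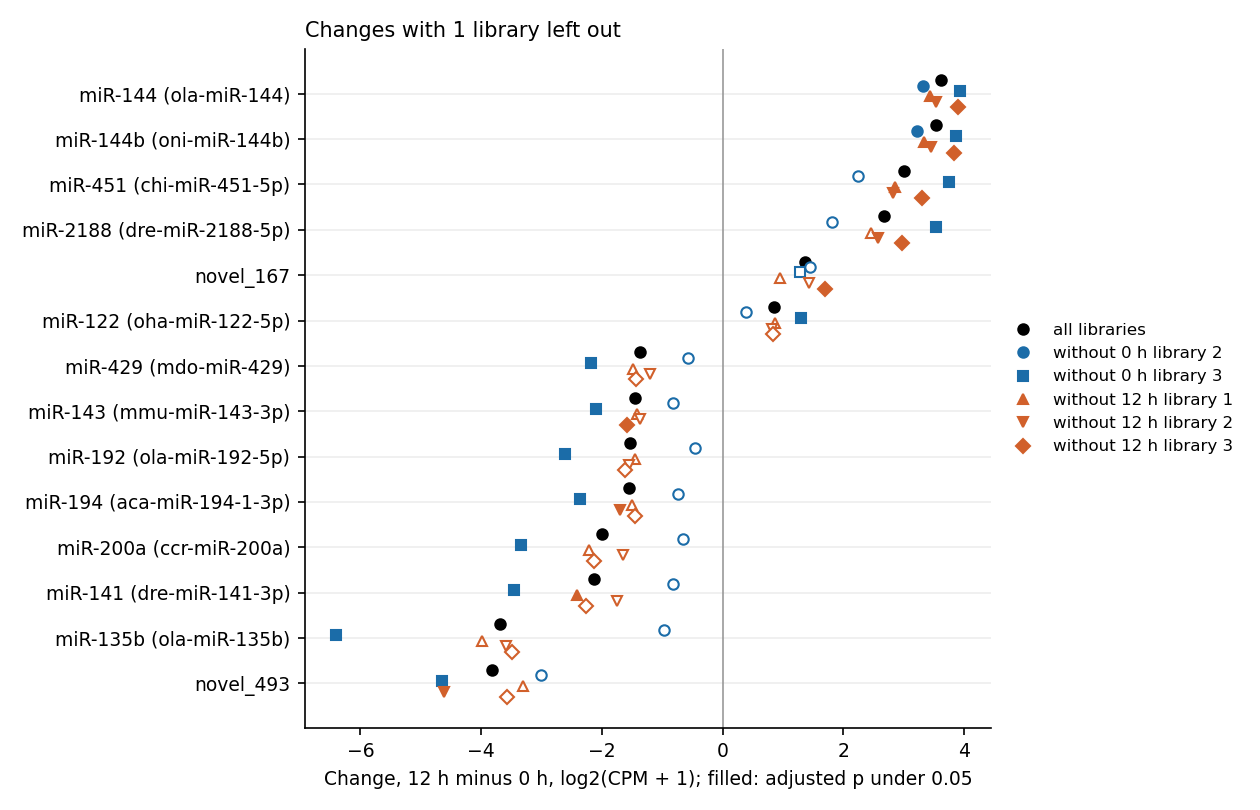
Change from 0 h to 12 h (log2(CPM + 1) scale) of 1 entry per called family, with all libraries and with each of the 5 normoxia libraries left out, filled where the adjusted p was under 0.05. The miR-144 and miR-144b markers stay filled throughout, while for miR-200a, miR-192, miR-141 and miR-135b the marker without library 2 of 0 h lies nearest to 0 and the one without library 3 farthest.

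The calls depended on which 0 h libraries were used. Without library 2 of 0 h, 4 of 602 entries passed in limma: ola-miR-144 (3.31), pol-miR-144-5p (3.35), oni-miR-144b (3.22) and mze-miR-22b. Without library 3, so that library 2 alone stood for 0 h, 193 passed. Without library 1, 2 or 3 of 12 h, 8, 9 and 14 passed. In the fits without 1 of the 0 h libraries, the remaining one is assumed to vary like the libraries of the other groups. With weights that count uneven libraries less, 0 entries passed in limma and 48 had an unadjusted p under 0.05. Both libraries of 0 h received equal weights there, so library 3 counted as little as library 2. In a fit of the 5 normoxia libraries alone, 3 passed.

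The authors' deposited mean of normoxia 0 h holds 1 further library that was not reconstructed here, and it differs from the mean of the 2 library columns by up to 12910 CPM. In the authors' deposited table the 0 h mean was 41.5 CPM for ola-miR-144, 2543 CPM for chi-miR-451-5p and 122 CPM for dre-miR-2188-5p. The log2 ratios of the authors' deposited 12 h and 0 h means were 2.48, 2.16 and 1.87, smaller than the 3.71, 2.87 and 2.50 from the means of the library columns. Some smaller or rarer rises shrank as well. aca-miR-199a-5p gave 0.21 against 0.61 from the columns, mdo-miR-199b-2-5p 0.57 against 1.07, dre-miR-93 0.05 against 0.53, and novel_167 1.44 against 5.03. For the falls the authors' deposited means gave -2.04 for ccr-miR-200a, -2.14 for dre-miR-141-3p, -1.56 for ola-miR-192-5p and -1.28 for efu-miR-143, against -2.47, -2.58, -1.90 and -1.59 from the columns. dre-miR-146a went the other way, with -1.32 from the authors' deposited means and -0.84 from the columns, and mmu-miR-128-3p gave 1.08 from both. The sign turned for dre-miR-153b-3p, at -0.93 in the authors' deposited table and 0.44 from the columns, and for bta-miR-221, at 0.04 and -0.05. The deposited 0 h means of dre-miR-216b, hsa-miR-217-5p and ssa-miR-8159-5p were 1690, 1124 and 3079 CPM, below both 0 h columns. Their ratios were -1.06, -0.88 and -0.91, against -1.63, -1.46 and -1.39 from the columns. For novel_493 the ratio was -3.44, against -3.94 from the columns. The deposited means carry no spread, so these ratios have no test.

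Whether the hours of the hypoxia groups match those of normoxia is not stated in the labels. The hypoxia groups labelled 12 h and 0 h were also compared, with 3 libraries at each time. There 0 of 602 entries passed in limma between 12 h and 0 h, 33 had an unadjusted p under 0.05, and edgeR called 0 and DESeq2 called 1. The difference between the change in normoxia and the change in hypoxia was tested in the same fit, and 6 of 602 entries passed (0.997%), all of miR-144, miR-144b or miR-451. ola-miR-144 stood at 87.1, 60.5 and 112 CPM in the hypoxia libraries at 0 h and at 63.5, 34.3 and 33.0 CPM at 12 h, a change of -0.995, so that its change in normoxia was 4.61 ± 0.59 higher (adjusted p = 0.000111, limma). The hypoxia 0 h libraries were all above the 2 library columns of normoxia 0 h, and the hypoxia 12 h libraries all below the normoxia 12 h libraries. The authors' deposited normoxia 0 h mean of ola-miR-144, which holds 1 further library, was 41.5 CPM and lay above both columns. chi-miR-451-5p stood at 4590, 2614 and 4737 CPM at 0 h and at 3967, 2500.1 and 3316 CPM at 12 h under hypoxia, and its change in normoxia was 3.26 ± 0.76 higher (adjusted p = 0.0498, limma).

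dre-miR-2188-5p, at 153, 110.1 and 172 CPM against 208, 107 and 138 CPM under hypoxia, differed by 2.64 ± 0.73 and did not pass (adjusted p = 0.140, limma). For the falls the difference did not pass either: ccr-miR-200a went from 1308 ± 351 to 1279 ± 117 CPM under hypoxia (SD, n = 3 each; difference -2.001 ± 0.68, adjusted p = 0.281, limma). oha-miR-122-5p went from 81761 ± 8054 to 93564 ± 3676 CPM (difference 0.64 ± 0.29, adjusted p = 0.486, limma), so that its hypoxia 12 h mean lay beside that of normoxia 12 h. The test of these differences uses the same normoxia 0 h libraries as the comparison above. It gave 3 calls without library 1, 2 or 3 of hypoxia 0 h or library 2 or 3 of hypoxia 12 h, and 92 without library 3 of normoxia 0 h.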

How the data were processed

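miRNA levels in liver of golden pompano were taken from one deposited table of 2108 entries with 22 library columns and 8 columns of means. Trizol was used for extraction, per the labels' protocols. Bowtie is named in the submitters' processing notes. For its version, the genome build and the counter, nothing is given in the sources used here. The values are CPM deposited by the authors, without scaling by length: each library column sums to the same total, and 100% of 27824 values above 0 were whole reads within 0.01. A read that matches several entries counts in each. 708 repeated rows were removed. Over all entries, repeated rows included, the 5 libraries held 17.7 to 31.9 M read assignments. The number of separate reads was not recovered. A floor of 3 reads in an entry is 0.0940 to 0.170 CPM, and such limits cover counting error only. Columns were joined to groups by the times in their names and by how many libraries a group has. The letters in the column names are not explained in the labels.

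The 602 entries that reached 1 CPM in 2 or more of the 22 libraries were tested on log2(CPM + 1) values by limma 3.58.1 under R 4.3.3, with a trend and all 8 groups, adjusted by Benjamini-Hochberg, threshold 0.05. On the recovered reads, the quasi-likelihood test of edgeR 4.0.16 and DESeq2 1.42.0 served as alternatives, beside other scalings, pseudocounts, filters, weights and fits without 1 library. The limma, edgeR and DESeq2 fits were tested on simulated data. Figures used matplotlib 3.10.9 in Python 3.11.15. The text names the 10 largest rises and falls that passed and averaged 10 CPM or more, predicted entries that passed, both arms of called families, list members by their most abundant entry (those past the threshold, or up to 4 with the largest change), the most abundant families, entries uneven between the 0 h libraries, and those called by both count tests alone. Some members of lists and all clustered partners were added for context. The members and the 19 lists, written from general knowledge, were chosen with earlier results of these data known.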

Additional observations from a re-analysis of the deposited data

Results flagged for a closer look

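The change over 12 h differed between normoxia and hypoxia in 6 entries, by the test of the difference itself in limma. The change in normoxia minus that in hypoxia was 4.63 for pol-miR-144-5p, 4.61 for ola-miR-144, 4.54 for oni-miR-144b, 2.87 for mmu-miR-144-3p, 2.86 for xla-miR-144-3p and 3.26 for chi-miR-451-5p, on the log2(CPM + 1) scale. pol-miR-144-5p and oni-miR-144b are near copies, as are both miR-144-3p entries, so the 6 entries are 4 signals under the limit of 0.2 log2 units in every library. Their adjusted p was 0.000111 for the first 3 and 0.0498 for the others. In all 6 the normoxia 12 h libraries were above both library columns of normoxia 0 h. The differences rest on these columns. In all 6 the authors' deposited normoxia 0 h mean, which holds 1 further library, lay above both. For ola-miR-144 it was 41.5 CPM, against 17.8 CPM from the columns.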

How the results depend on the processing

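With all libraries 29 entries passed between 12 h and 0 h in normoxia, and the difference from hypoxia passed in 6. TMM scaling gave 11 for the former, quantile scaling 15 and 3, no filter on low values 11 and 3, DESeq2 97 and 24, edgeR 79 for the former, weights for uneven libraries 0 (limma, 48 at an unadjusted p under 0.05) and 3, and the 5 normoxia libraries alone 3. Of the 29, TMM kept 10, quantile scaling 14, and edgeR and DESeq2 28 each. edgeR without library 2 of normoxia 0 h, chosen after seeing the data, gave 4. Leaving out 1 library gave 4 to 193 calls in normoxia and 3 to 92 for the difference, both highest without library 3 of normoxia 0 h. Pseudocounts of 0.1 and 10, a filter on the 5 libraries and identical rows kept gave 26 to 29 calls. The array weights of both normoxia 0 h libraries were 0.174, the lowest of all 22. Libraries in a group of 2 receive equal weights, so the weights cannot tell which 0 h library deviated. The cause of these shifts was not tested.

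ola-miR-144, pol-miR-144-5p and oni-miR-144b passed in 17 of 18 alternatives, chi-miR-451-5p in 14, dre-miR-2188-5p in 13, efu-miR-143 in 10, dre-miR-141-3p in 9, oha-miR-122-5p, ccr-miR-200a and ola-miR-192-5p in 8 and ola-miR-135b in 5, with adjusted p up to 0.892 and no change of sign. Quantile scaling moved the median of all entries from -0.06 to 0.11.

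The replicate block gave 29 calls in normoxia and 3 for the difference. The numbers were not taken to pair the libraries: of 70 same-numbered pairs across groups, 15 had deviations correlated above 0.1, and within normoxia the values were 0.0873 and 0.0629. Depth limits the rarest calls: novel_167 and ssa-miR-2188-3p rest on 0 to 3 reads in each library column of 0 h.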
